A study of Mus musculus with 8 samples.

Results

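The acyl-CoA binding protein family was followed in the cochlea of mice carrying a conditional knockout of Dnajc17. The 6 members are Acbd7, Dbi, Acbd3, Acbd4, Acbd5 and Acbd6, taken by gene name from 78317 genes in the deposited table. Acbd7, a marker of hair cells, was chosen by its TPM in these same 8 libraries, where it showed the clearest fall among hair cell markers in homo, and the other 5 were added for their family name. For Acbd7 the difference between the groups is therefore a description and carries no test.

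RNA was taken from the cochlear basilar membrane, which supports the sensory hair cells and the cells around them, on postnatal day 6. There were 4 libraries titled hete, whose genotype tag reads WT, and 4 titled homo, tagged Dnajc17 cKO, so the labels do not settle whether the hete animals carry a mutant allele. The Cre driver, the deleted part of the gene, the strain, and whether each library came from a separate animal are not named in the labels, and a p-value here reflects spread between libraries that could be technical replicates. Values are TPM (transcripts per 1000000), which allow for transcript length, so that levels of different genes can be set side by side.

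Acyl-CoA binding proteins hold fatty acids that have been activated as thioesters of coenzyme A. They shield these esters in the cytosol, buffer the free pool, and hand them to enzymes of membrane lipid synthesis and of oxidation in mitochondria and peroxisomes. Dbi, the diazepam binding inhibitor or acyl-CoA binding protein itself, and Acbd7 are small proteins made of little more than the binding domain. Acbd3 adds a Golgi anchor and recruits a phosphatidylinositol kinase, Acbd4 and Acbd5 sit in the peroxisomal membrane and tether it to the endoplasmic reticulum, and Acbd6 carries ankyrin repeats and assists protein N-myristoylation. Hair cells turn over membrane at their synapses and bundles, and Acbd7 is used as a marker of them.

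Acbd7 and Dbi are the members closest in size, and their coding sequences are shown to let a reader judge whether reads of the less abundant Acbd7 could be taken from the abundant Dbi. Both are from GENCODE M21 transcripts on GRCm38, 5′ to 3′ without the stop codon, with capitals marking bases that differ from, or have no partner in, the other sequence in a global alignment. Acbd7-201 lies on the plus strand of chromosome 2 and Dbi-201 on the minus strand of chromosome 1.
Acbd7: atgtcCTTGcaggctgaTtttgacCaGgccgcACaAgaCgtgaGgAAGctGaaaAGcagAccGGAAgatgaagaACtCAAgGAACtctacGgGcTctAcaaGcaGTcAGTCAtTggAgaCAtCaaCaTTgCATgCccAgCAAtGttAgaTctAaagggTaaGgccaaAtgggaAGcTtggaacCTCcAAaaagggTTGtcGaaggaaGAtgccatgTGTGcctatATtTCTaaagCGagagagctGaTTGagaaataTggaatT
Dbi: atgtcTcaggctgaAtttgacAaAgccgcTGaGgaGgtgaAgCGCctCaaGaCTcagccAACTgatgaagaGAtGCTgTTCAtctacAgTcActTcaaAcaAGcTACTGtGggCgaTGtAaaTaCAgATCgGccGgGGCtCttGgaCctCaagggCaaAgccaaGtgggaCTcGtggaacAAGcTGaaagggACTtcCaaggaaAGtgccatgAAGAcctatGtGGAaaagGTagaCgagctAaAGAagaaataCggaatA
The coding sequences have 264 bases for Acbd7 and 261 for Dbi, each over a transcript of 4 exons. Of 266 aligned positions, 166 were identical (62.4%), 93 were mismatches and 7 were gaps. The longest run that both transcripts share anywhere, untranslated ends included, was 9 bases. Against the other 4 members, the longest run shared with the Acbd7 transcript was 10 bases, and no other gene of the annotation matched the Acbd7 coding sequence at an E-value limit of 1e-10. Dbi matched 3 processed pseudogenes, the closest being Gm12222 with 93.8% identity over 98.9% of the coding sequence, and all 3 were listed at 0 TPM in all 8 libraries. Acbd5 matched 4 processed pseudogenes at 89.3 to 92.7% identity, none above 0.23 TPM in any library. Acbd3 matched the protein-coding gene Tmed8, at most at 7.72 TPM, with 72.1% identity over 11.6% of the Acbd3 coding sequence. No annotated gene overlapped Acbd7 on either strand.

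Acbd7 (ENSMUSG00000026644, chromosome 2) stood at 39.6, 28.42, 38.46 and 38.73 TPM in hete replicates 1 to 4 and at 12.77, 22.17, 20.41 and 21.46 TPM in homo replicates 1 to 4. Every homo library lay below every hete library, although hete replicate 2 was well below the other hete libraries and homo replicate 1 well below the other homo libraries. The means were 36.3 ± 5.28 and 19.2 ± 4.35 TPM (SD, n = 4 each), so that the homo mean was 52.9% of the hete mean. With homo set over hete and log2(TPM + 1) as the scale, the fitted log2 fold change was -0.90 (SE 0.17, 95% interval -1.30 to -0.51). Of 17811 tested genes, those with a mean of at least 1 TPM, 154 or 0.865% had a log2 fold change as low or lower, and in 252 or 1.41% every homo value lay below every hete value. Leaving out 1 library at a time kept the value of Acbd7 between -1.01, without hete replicate 2, and -0.73, without homo replicate 1. In whole tissue, fewer cells of a type and less RNA per cell cannot be told apart.

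**Figure D1:**
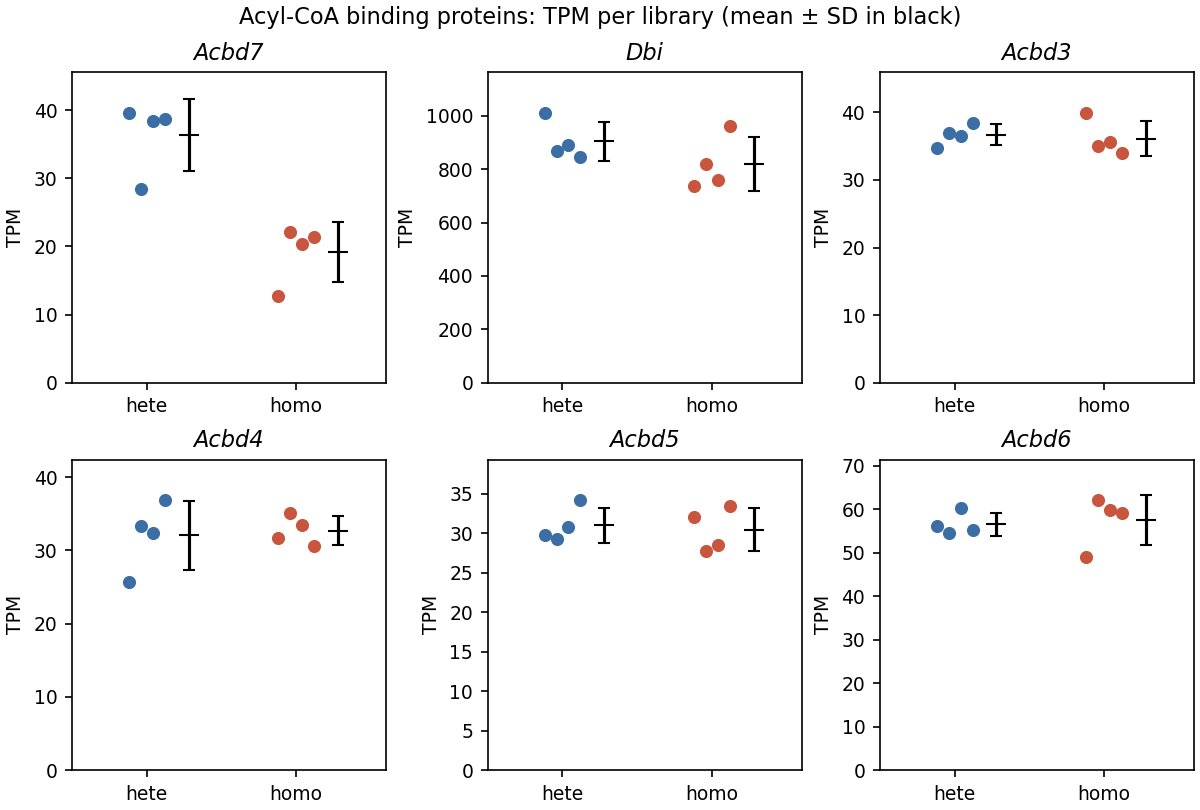
TPM of the 6 acyl-CoA binding proteins on axes that start at 0, with 1 point per library and the mean ± SD (n = 4) in black beside hete (blue) and homo (red). The Acbd7 points lie at 28.42 to 39.6 TPM in hete and 12.77 to 22.17 TPM in homo, while the groups overlap for the other 5 genes.

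Dbi (ENSMUSG00000026385, chromosome 1), the cytosolic carrier that also gives rise to peptides acting on GABA-A receptors, was the most abundant member. It had 1010.61, 866.17, 891.75 and 845.75 TPM in hete and 738.31, 817.21, 759.08 and 960.79 TPM in homo. The lowest 3 of the 8 values were from homo libraries, but homo replicate 4 exceeded 3 of the 4 hete libraries and the groups overlapped. The means were 903.6 ± 73.8 and 818.8 ± 100.3 TPM (SD, n = 4 each), with a log2 fold change of -0.15 (SE 0.09, 95% interval -0.36 to 0.07). Without homo replicate 4 it was -0.23 (95% interval -0.41 to -0.04), the only left-out library with which the interval excluded 0, and without hete replicate 1 it was -0.09.

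Acbd3 (ENSMUSG00000026499, chromosome 1), the Golgi member, had 34.64, 36.94, 36.55 and 38.44 TPM in hete and 39.91, 34.93, 35.61 and 33.92 TPM in homo. The highest and the lowest value of the 8 both came from homo libraries. Its log2 fold change was -0.02 (SE 0.07, 95% interval -0.18 to 0.13).

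Acbd6 (ENSMUSG00000033701, chromosome 1), the partner of N-myristoyltransferases, had 56.12, 54.51, 60.29 and 55.24 TPM in hete and 49.09, 62.12, 59.94 and 59.2 TPM in homo. Its lowest library was homo replicate 1, the library in which Acbd7 and Dbi were also lowest and Acbd3 highest. In the fit it differed by 0.02 on the log2 scale (SE 0.08, 95% interval -0.16 to 0.20).

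The peroxisomal pair also overlapped between groups. Acbd4 (ENSMUSG00000056938, chromosome 11) had 25.69, 33.33, 32.32 and 36.88 TPM in hete and 31.72, 35.06, 33.43 and 30.59 TPM in homo. Its 4 hete values spanned the whole range of the 8, and it differed by 0.04 on the log2 scale (SE 0.10, 95% interval -0.20 to 0.27). Acbd5 (ENSMUSG00000026781, chromosome 2) had 29.77, 29.27, 30.78 and 34.2 TPM in hete and 32, 27.78, 28.49 and 33.5 TPM in homo. Its groups were interleaved, with a log2 fold change of -0.03 (SE 0.08, 95% interval -0.21 to 0.16).

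All 6 members passed the filter on low values, and none was among the genes called over the whole table. By limma-trend with a Benjamini-Hochberg adjusted p under 0.05, 2 of 17811 genes were called, or 0.0112%, and both lie outside the family. At an unadjusted p under 0.05 the same fit held 1078 genes, or 6.05%, and 1 of the 6 members, Acbd7, from which nothing is read because the contrast chose it. The intervals of Acbd3, Acbd4, Acbd5 and Acbd6 lay within -0.21 and 0.27, which bounds their differences without showing that they were equal in both groups.

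**Figure D2:**
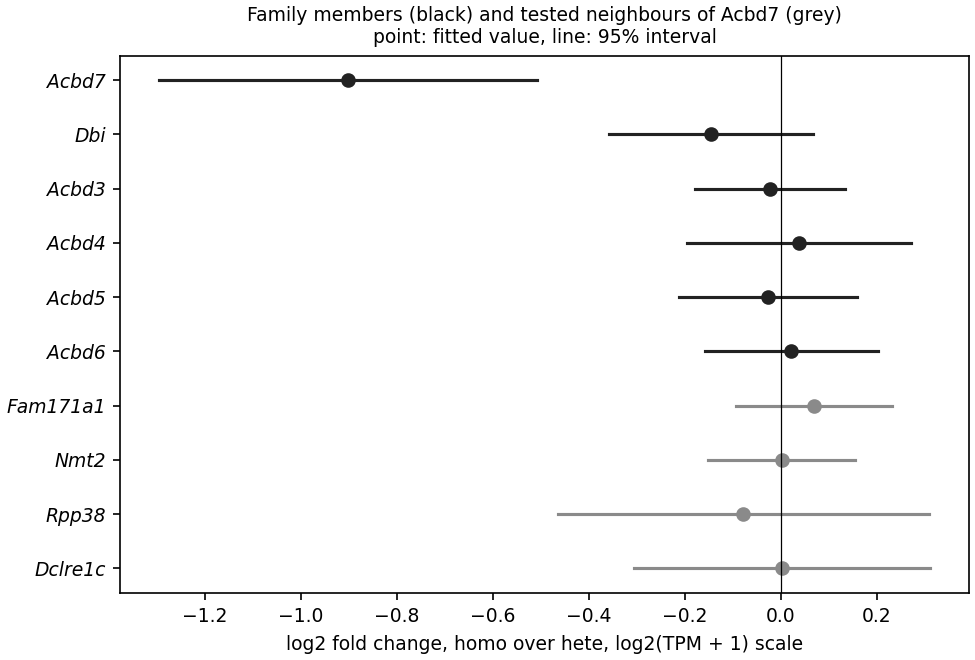
Fitted log2 fold change (homo against hete, from log2(TPM + 1)) with its 95% interval, for the 6 family members in black and the 4 tested neighbours of Acbd7 on chromosome 2 in grey. The interval of Acbd7 runs from -1.30 to -0.51, and those of the other 9 genes include 0.

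The family spanned a wide range of levels. Over the 8 libraries the mean was 861.2 ± 93.3 TPM for Dbi, 57.1 ± 4.19 for Acbd6, 36.4 ± 2.03 for Acbd3, 32.4 ± 3.34 for Acbd4, 30.7 ± 2.33 for Acbd5 and 27.8 ± 10.2 for Acbd7 (SD, n = 8). Dbi was 15.1 times as high as Acbd6, and Acbd6 1.57 times as high as Acbd3, each in 8 of 8 libraries with no overlap of their ranges. The next neighbours in the order overlapped in range: Acbd3 exceeded Acbd4 in 7 of 8 libraries, Acbd4 exceeded Acbd5 in 5 of 8, and Acbd5 exceeded Acbd7 in 5 of 8. The position of Acbd7 differed between groups, as the third most abundant member in hete replicates 1, 3 and 4 and the lowest in hete replicate 2 and in all 4 homo libraries.

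Dbi supplied most of the family's transcripts in every library. The summed level of the 6 members was 1049 to 1196 TPM in hete and 904 to 1139 TPM in homo. For hete the share of Dbi was 82.4% ± 1.62 and for homo 82.2% ± 1.45 (SD over 4 libraries), and Acbd7 made up 3.31% ± 0.43 and 1.92% ± 0.37. The shares of Acbd7 ran from 2.71 to 3.69% in hete and from 1.41 to 2.22% in homo, and did not overlap. They use the same TPM by which Acbd7 was chosen, so this separation restates its fall.

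Hair cell transcripts were set beside Acbd7 in each library. The tissue carried them: Myo7a, a motor of the hair bundle, had 14.1 to 20.85 TPM and Pou4f3, a transcription factor that hair cells need to survive, had 12.65 to 20.37 TPM over the 8 libraries, both named after their values were seen. Of 28 hair cell markers other than Acbd7, 27 passed the filter, the exception being the early factor Atoh1 at 0.36 to 1.08 TPM. Their mean on the log2(TPM + 1) scale was 3.76 to 3.97 in hete and 3.66 to 3.85 in homo, with overlap. Acbd7 exceeded that mean by 1.58, 1.03, 1.42 and 1.34 in hete replicates 1 to 4 and by 0.0132, 0.74, 0.76 and 0.64 in homo replicates 1 to 4, on the same scale. These differences did not overlap between groups, and their group means were 1.34 ± 0.23 and 0.54 ± 0.35 (SD, n = 4 each). Thus the level of Acbd7 was lower in homo by 0.80 more on the log2 scale than the mean of the 27 markers, as a description of the contrast that chose it.

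**Figure D3:**
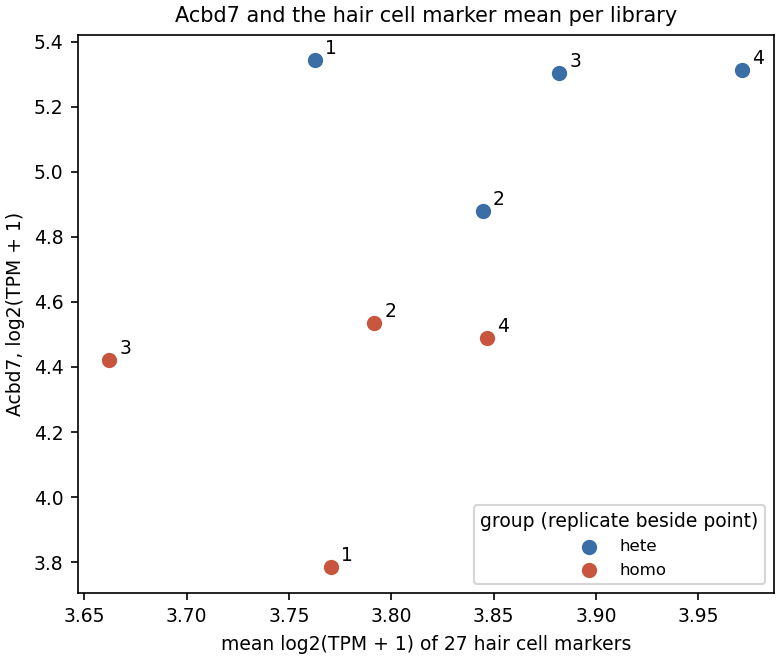
Acbd7 against the mean of 27 hair cell markers in each library, both as log2(TPM + 1), with hete in blue, homo in red and the replicate number beside each point. The marker means overlap between 3.76 to 3.97 in hete and 3.66 to 3.85 in homo, while Acbd7 separates the groups.

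None of the 27 hair cell markers was called, with 8 higher and 19 lower and a median log2 fold change of -0.10, beside 0.02 over all tested genes. Of all 17811 tested genes, 10032 were higher and 7779 lower. At an unadjusted p under 0.05, 6 of the 27 were lower and 0 higher, beside 2.49% of all tested genes lower and 3.56% higher. Without hete replicate 4 the median was -0.02, and without homo replicate 3 it was -0.06. Of 39 tested markers of hair cells, outer hair cells and inner hair cells, only Ocm, the calcium buffer of outer hair cells, had a lower log2 fold change than Acbd7. A low place of Acbd7 in this order follows from its choice by its fall in this contrast. Ocm had 169.35, 100.86, 159.93 and 277.77 TPM in hete and 121.98, 88.53, 57.53 and 92.68 TPM in homo. Its groups overlapped and its log2 fold change of -0.92 had an SE of 0.34, against 0.17 for Acbd7. Next after Acbd7 came Atp2a3, a calcium pump, at -0.46 (SE 0.17). The highest of the 8 higher markers among the 27 were Lhx3 (0.22, SE 0.13), Rbm24 (0.165, SE 0.105), Myo7a (0.149, SE 0.125) and Calb1 (0.146, SE 0.09). The markers with the smallest p among the 27 were Cib2, of the mechanotransduction complex (-0.27, SE 0.07), Tomt, which brings transduction channels to the bundle (-0.35, SE 0.11), Otof, the calcium sensor of the synapse (-0.30, SE 0.10), and the acetylcholine receptor subunit Chrna9 (-0.37, SE 0.13). Cib2 had 48.04 to 55.66 TPM in hete and 39.05 to 43.46 TPM in homo, and Tomt 7.6 to 10.51 and 6.28 to 7.05 TPM, without overlap. A separation with homo lower was found in 1.41% of tested genes, and both markers were named for their small p. None of the 7 outer hair cell markers was called, with 6 lower and a median of -0.17, a value that was -0.01 without hete replicate 4. Chrna10 stood at -0.25 (SE 0.12), Strc at -0.21 (SE 0.15) and Sri at 0.07 (SE 0.06). None of the 5 inner hair cell markers was called, with 1 lower and a median of 0.05, a median that ran from -0.04 without homo replicate 4 to 0.10 without homo replicate 2. They included Fgf8 at 0.32 (SE 0.19), Calb2 at 0.11 (SE 0.32), Slc17a8 at -0.15 (SE 0.16) and Slc7a14 at 0.05 (SE 0.14).

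**Figure D4:**
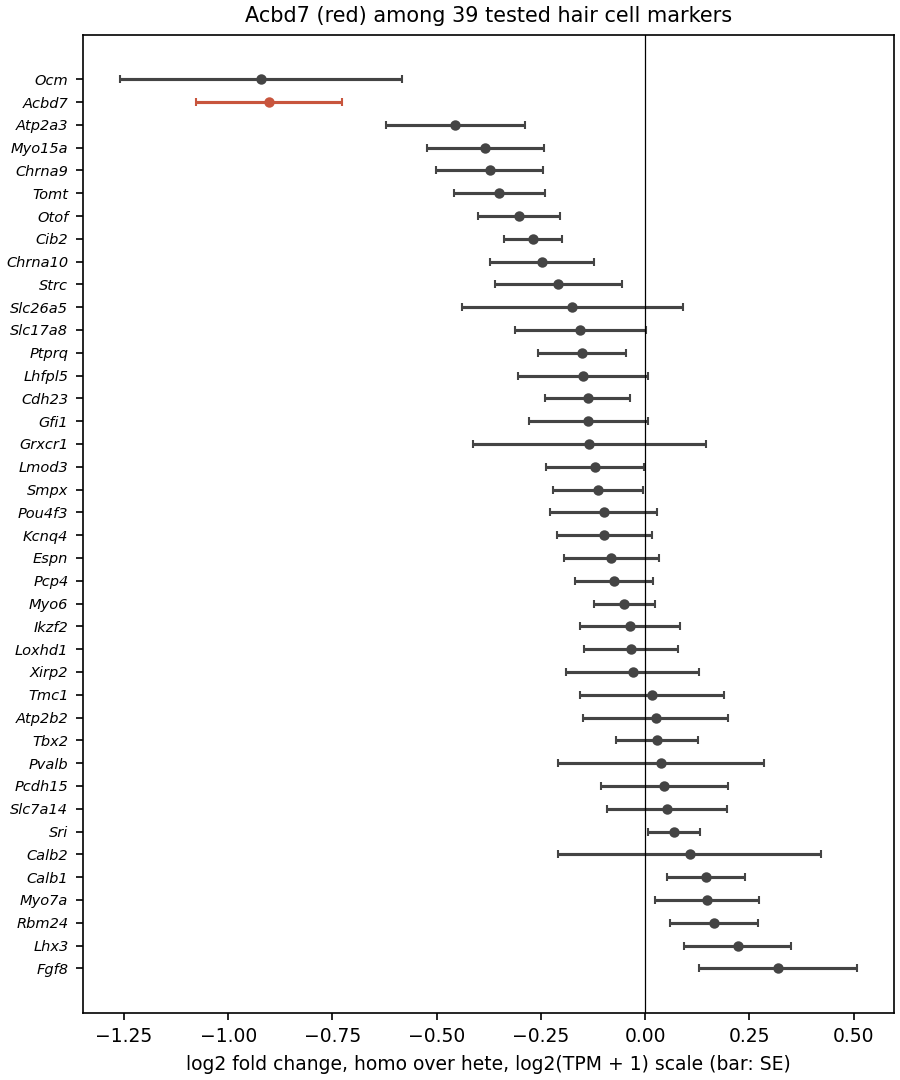
Fitted log2 fold change (homo against hete, from log2(TPM + 1)), with SE bars, for Acbd7 in red and 39 tested markers of hair cells in grey, from the lowest at the top. Ocm at -0.92 and Acbd7 at -0.90, which was chosen for its fall in this contrast, stand below the rest, which begin at -0.46 with Atp2a3.

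Markers of other cells of the sample were set beside these values, and none of them was called. On the log2(TPM + 1) scale the mean of 18 supporting cell markers was 6.25 to 6.42 in hete and 6.38 to 6.52 in homo, with overlap. Of these 18 markers, 13 were higher (median 0.06). The summed level of all 18 was 6499 to 7295 TPM in hete and 7432 to 7889 TPM in homo, without overlap. Tectb, a tectorial membrane protein, at 4078 ± 210.9 and 4726 ± 183 TPM (SD, n = 4 each), makes up most of that sum. The other 3 with the smallest p were Otog (0.28, SE 0.07), the Notch ligand Jag1 (0.24, SE 0.07) and Tecta (0.56, SE 0.18). The 5 lower supporting cell markers included Hes5 (-0.46), S100b (-0.12) and Fabp7 (-0.08). All 13 tested spiral ganglion neuron markers (median 0.16) and all 12 Schwann and satellite glia markers (median 0.17) had higher values, with overlapping sums of 361 to 554 and 432 to 705 TPM for neurons and of 966 to 1649 and 955 to 1932 TPM for glia. They included Syt1 (0.31, SE 0.07), Isl1 (0.29, SE 0.08), Ntrk3 (0.43, SE 0.19), Gap43 (0.30, SE 0.14), Egr2 (0.62, SE 0.26), Foxd3 (0.36, SE 0.22) and Erbb3 (0.12, SE 0.11). At an unadjusted p under 0.05, 5 of the 18 supporting cell, 3 of the 13 neuron and 1 of the 12 glia markers were higher, and none of these was lower. Over all tested genes the same fit had 3.56% higher and 2.49% lower at that p. Whatever their p, 10032 of the 17811 tested genes were higher and 7779 lower. Left-out libraries moved these medians, that of neurons between 0.03 without hete replicate 1 and 0.34 without homo replicate 3, that of glia between 0.02 and 0.40 without the same libraries, and that of supporting cells between 0.03 without homo replicate 1 and 0.11 without hete replicate 4. Macrophage markers (3 of 10 higher, median -0.03) summed to 346 to 392 and 341 to 417 TPM, with Aif1 at -0.30 (SE 0.11), Fcer1g at 0.30 (SE 0.16), C1qa at 0.14 (SE 0.11) and C1qb at 0.11 (SE 0.09). Their median took either sign, from -0.08 without homo replicate 2 to 0.06 without homo replicate 4. Erythroid markers (0 of 5 higher, median -0.21) summed to 2467 to 5329 and 3113 to 4076 TPM, with Hbb-bt, Hbb-bs and Hba-a2 at -0.21 each (SE 0.18, 0.19 and 0.35) and Alas2 at -0.12 (SE 0.21). Their median was -0.07 without hete replicate 2 and -0.38 without hete replicate 4. None of these cell type lists had a member at 0 in all libraries, and the part of the other cells in the level of Acbd7 was not tested.

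Acbd7 shares chromosome 2 with Acbd5 and with the targeted gene. Dnajc17, which encodes a J-domain protein, had 26.51, 25.45, 25.09 and 22.06 TPM in hete and 29.33, 27.65, 31.08 and 18.04 TPM in homo, with overlap. The log2 fold change of Dnajc17 was 0.07 (SE 0.15, 95% interval -0.27 to 0.41), an interval that includes a fall, and its lowest value came from homo replicate 4. A gene-level value of the whole tissue does not check whether part of the gene is missing in some cells. In gene order, 681 tested genes lie between Acbd7 and Dnajc17, and 89 between Acbd7 and Acbd5. Of the 3 protein-coding genes on either side of Acbd7, 4 were tested. Rpp38, a protein subunit of ribonuclease P and the nearest on one side, had 9.16 to 13.27 TPM in hete and 6.77 to 12.31 TPM in homo (-0.08, SE 0.17). Nmt2, an N-myristoyltransferase, had 17.17 to 18.94 and 17.58 to 18.99 TPM (0.00, SE 0.07), and Fam171a1 had 19.18 to 22.37 and 21.69 to 23.59 TPM (0.07, SE 0.07). Dclre1c, the nuclease Artemis, had 6.66 to 9.2 and 6.51 to 9.63 TPM (0.00, SE 0.14). The groups overlapped for all 4, and for Olah (at most 0.22 TPM) and Meig1 (at most 1.64 TPM), which did not pass the filter. Whether alleles linked to the targeted locus take part in the level of Acbd7 was not tested.

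The known partners of the family were measured at moderate levels, and none of the 8 was called (median 0.02). Tspo, the mitochondrial outer membrane protein that binds Dbi peptides and Acbd3, had 92, 83.67, 101.28 and 102.65 TPM in hete and 65.27, 78.39, 77.14 and 89.28 TPM in homo. All homo libraries but replicate 4 lay below the hete range, and the log2 fold change was -0.29 (SE 0.10). For Acbd3, the kinase Pi4kb stood at -0.00 (SE 0.08), the Golgi protein Golgb1 at 0.11 (SE 0.19) and Prkar1a, a regulatory subunit of protein kinase A, at 0.04 (SE 0.06). For Acbd4 and Acbd5, the endoplasmic reticulum anchors Vapa and Vapb stood at 0.11 (SE 0.08) and 0.01 (SE 0.11). For Acbd6, Nmt1 stood at 0.05 (SE 0.07), beside Nmt2 given above. Of 13 GABA-A receptor subunits, 3 passed the filter, among them Gabra4 (0.09, SE 0.15), and Gabra6 was listed at 0 in all libraries.

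Other genes with an acyl-CoA binding domain were not called. Eci2, a peroxisomal and mitochondrial enoyl-CoA isomerase, had 151.59 to 156.16 TPM in hete and 147.57 to 177.86 TPM in homo (0.07, SE 0.07), the highest level after Dbi among these genes. Eci3 had 0.91 to 1.37 and 0.46 to 1.1 TPM (-0.26, SE 0.19), and Dbil5, known from the testis, had 0 to 0.65 and 0.57 to 1.19 TPM and did not pass the filter. Of 20 protein-coding genes that the deposited table annotates to fatty-acyl-CoA binding outside the family, 16 were tested, 6 higher and 10 lower, with a median of -0.04. The 4 with the smallest p were Acadl (0.13, SE 0.07), Acot7 (0.18, SE 0.10), Acads (0.10, SE 0.06) and Acadvl (-0.11, SE 0.07), enzymes of acyl-CoA oxidation and hydrolysis.

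Enzymes that make and use acyl-CoA did not yield a call either. Their counts stand beside 10032 higher and 7779 lower of all 17811 tested genes. Among long-chain acyl-CoA synthetases, 11 of 13 were tested, 6 higher and 5 lower (median 0.01), including Slc27a6 (0.24, SE 0.17), Acsl6 (-0.18, SE 0.23), Slc27a2 (0.10, SE 0.13) and Slc27a1 (0.06, SE 0.09). Of 15 genes of mitochondrial import and oxidation, 8 were higher (median 0.01), including Hadh (0.12, SE 0.06), Cpt1c (0.20, SE 0.11) and Cpt2 (0.12, SE 0.07). Of 10 peroxisomal genes, 6 were higher (median 0.02). Ehhadh, the bifunctional enzyme of peroxisomal oxidation, had 6.28, 6.29, 6.88 and 6.19 TPM in hete and 7.73, 7.66, 7.5 and 8.14 TPM in homo (0.24, SE 0.09), a separation with homo higher that 2.58% of tested genes share. Acox2 (-0.50, SE 0.24), Acox3 (-0.21, SE 0.10) and Hsd17b4 (0.07, SE 0.06) overlapped between groups.

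Peroxins, which build the organelle that carries Acbd4 and Acbd5, had a median of 0.06, with 12 of 16 higher, beside 10032 of all 17811 tested genes. Pex2, a ubiquitin ligase of the import machinery, had 54.62 to 58.31 TPM in hete and 59.4 to 62.34 TPM in homo (0.12, SE 0.05), and Pex19 (0.18, SE 0.09) and Pex3 (0.14, SE 0.08) overlapped. Among thioesterases, which release the fatty acid again, 4 of 7 tested were higher (median 0.06). Acot13 had 96.36, 87.34, 86.84 and 90.92 TPM in hete and 77.98, 77.02, 75.43 and 85.85 TPM in homo (-0.19, SE 0.06), all homo values lying below the hete values, and Acot1 stood at 0.29 (SE 0.14) and Acot11 at -0.17 (SE 0.12). Groups without overlap in either direction made up 3.99% of tested genes. Of 7 fatty acid binding proteins, 3 passed the filter, Fabp7 of glia (-0.08, SE 0.13), Fabp3 (-0.18, SE 0.15) and Fabp5 (0.17, SE 0.18), and Fabp1 and Fabp6 were listed at 0. With 1 library left out, the median of the thioesterases ran from 0.01 without homo replicate 3 to 0.11 without homo replicate 2, and that of the peroxins from 0.03 without hete replicate 1 to 0.09 without hete replicate 2. The smaller medians of the synthetases (-0.02 to 0.06), the peroxisomal genes (-0.03 to 0.04) and the partners (-0.01 to 0.06) took either sign, those of mitochondrial oxidation ran from 0.01 to 0.08, and those of the genes annotated to fatty-acyl-CoA binding from -0.05 to -0.01.

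**Figure D5:**
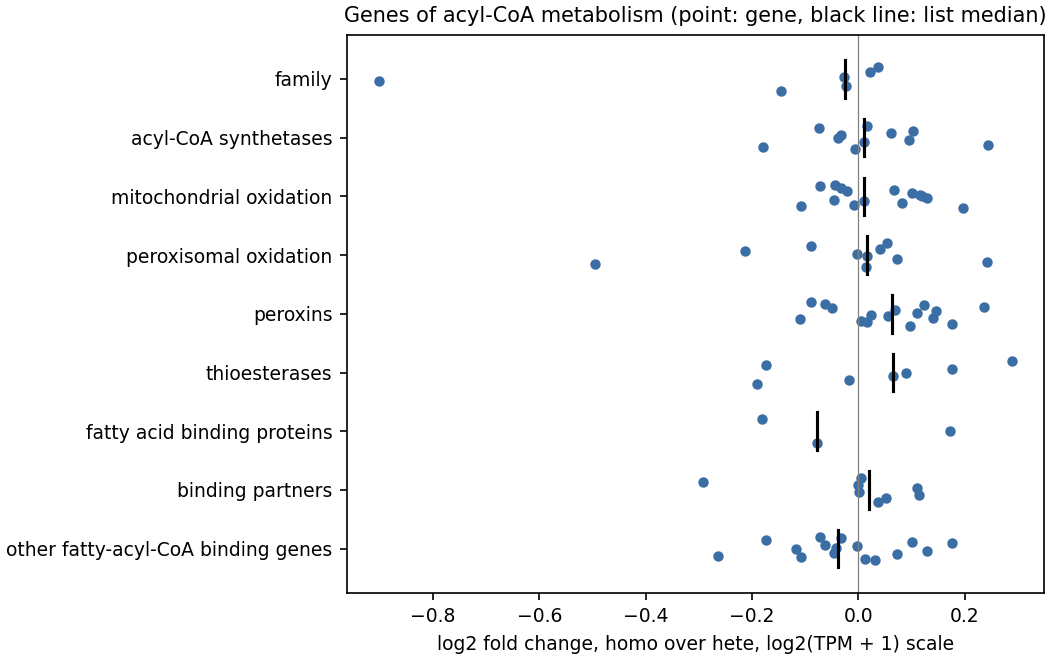
Fitted log2 fold change (homo against hete, from log2(TPM + 1)) for tested genes of 9 lists of acyl-CoA biology, with 1 point per gene and a black line at each list's median. The medians lie between -0.08 and 0.06. Acbd7 at -0.90, which was chosen for its fall in this contrast, is the lowest point of the plot, followed by Acox2 at -0.50.

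The genes with the pattern most like that of Acbd7 were sought by Pearson r of log2(TPM + 1) over the 8 libraries, among 14058 named genes that are no pseudogenes. With each group's mean subtracted, so that the contrast takes no part, the top 5 were Anks3 (r = 0.967), Etfbkmt (0.964), Crip3 (0.957), Fcor (0.951) and Cox14 (0.927). They share low values in hete replicate 2 and homo replicate 1, as in Etfbkmt, with 17.93 and 18.34 TPM there and 21.45 to 24.06 in the other 6 libraries. None is a listed hair cell marker, and the median r was -0.05 over the 27 hair cell markers beside -0.11 over all tested genes. With the group means kept, the top 5 were Abhd8 (0.971), Npc2 (0.966), Adat3 (0.948), Bet1l (0.936) and Pard6a (0.923). Npc2, the cholesterol carrier of the lysosome, had 135.06 to 138.44 TPM in hete and 124.73 to 130.01 TPM in homo (-0.09, SE 0.05, 95% interval -0.20 to 0.02). A search with the group means kept favours genes whose groups lie apart, so this separation follows from the search. The r values of both searches are the highest of many over 8 points and carry no p.

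For Dbi, with group means subtracted, the most alike were Cox5a (r = 0.979), Cox6b1 (0.972), Kif17 (0.968), Ndufs5 (0.964) and Mia (0.958), over the same 8 libraries and 14058 genes. Cox5a and Cox6b1 are subunits of cytochrome c oxidase and Ndufs5 of respiratory complex I. Cox5a had 321.1 TPM in hete replicate 1 and 320.82 in homo replicate 4, the libraries in which Dbi was highest in its group, and 239.47 to 282.95 TPM in the others.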

How the data were processed

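Polyadenylated RNA of 4 hete and 4 homo libraries was measured. The authors deposited TPM for 78317 genes with 2 decimals; fastp, HISAT2, StringTie, RSEM, DESeq2 and GRCm39 are named per the submitters' processing notes, without versions or roles. Each library sums to 1000000 within 1, so depth is unknown and no interval that needs read numbers is given.

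Groups and replicates came from the sample titles. The filter kept 17811 genes whose mean reached 1 TPM, and limma 3.58.1 (R 4.3.3) was run on log2(TPM + 1) (trend and robust eBayes, genotype only), with Benjamini-Hochberg adjustment over all of them and a threshold of 0.05. The steps were tested on simulated data. Members, lists and the rule for named genes (smallest p in a list, chromosome neighbours, likeness) were chosen with earlier results of these data known, and the list from the deposited annotation after the data were seen. Sequences and gene order came from GENCODE M21 on GRCm38, so no coordinates are printed, and were compared with blastn 2.17.0 and Biopython 1.88. Across genes, same-numbered libraries did not deviate together (r from -0.08 to 0.05, over genes that are not independent). The mitochondrial share of TPM, however, was highest in replicate 4 and lowest in replicate 3 in both groups. It was 10.35 and 9.15% there in hete and 10.13 and 8.69% in homo. Whether the replicate numbers mark a shared batch was not tested. Alternatives were another scaling, filter, pseudocount and eBayes setting, a replicate block, and each library left out. The deposited ontology and splicing tables were not used here. Some genes that the rule names are left out of the text.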

Additional observations from a re-analysis of the deposited data

Results flagged for a closer look

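Of 18 sets of 4 libraries screened with Dixon's gap test, 2 held a library far from the others. Chance marks about 1 in 20 independent sets, but both of these hold values of Acbd7, so no excess is read from the count. Acbd7 in hete had its lowest library at 28.42 TPM, replicate 2, with a gap of 0.898 of the group's range, past the 95% critical value. The difference of Acbd7 from the hair cell marker mean in homo was lowest in replicate 1, at 0.0132 on the log2 scale, with a gap of 0.845 of the range. Without these libraries the log2 fold change of Acbd7 was -1.01 and -0.73.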

How the results depend on the processing

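Over the 15 alternatives the log2 fold change of Acbd7 lay between -1.01 and -0.73 with 1 library left out and between -0.94 and -0.90 otherwise. The filters, the eBayes setting and the replicate block cannot change this value. Leaving out 1 of 4 libraries cannot move it beyond the spread between libraries, so its small movement is no test. Its difference from the 27 hair cell markers, -0.80, ran from -0.91 to -0.63. The values of Dbi stayed below 0 (-0.23 to -0.09), while those of Acbd3, Acbd4, Acbd5 and Acbd6 took either sign, within -0.07 and 0.11. Genes called higher over the table, 1 as reported, were 0 with no filter on low values and 0 with the replicate block, and 0 to 3 with a library left out. Genes called lower, also 1, were 2 with at least 5 TPM in 4 libraries and 1 to 3 with a library left out. In no alternative was a family member called. The replicate block, whose numbers are not stated to pair the libraries, holds 1 hete and 1 homo library per number. It therefore leaves the log2 fold change of Acbd7 at -0.90 by design, and only the SE differed, at 0.19 against 0.17. The unknown depth limits what can be said of genes near 1 TPM, such as Eci3.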
